A study of Mus musculus with 30 samples.

Results

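H19, Igf2, Peg3, Mest, Ndn and Grb10 are genes that mammals express mainly from 1 parental copy. They were followed as a set of 6 genes, matched by Ensembl identifier, out of 39676 rows in the count table. All 6 had a row, and all 6 were among the 15926 genes whose mean over the tumors reached 10 counts. The set was chosen with results of these tumors in view, so the differences between tumor types for the 6 genes are given as levels, log2 fold changes and standard errors. How many of the 6 were past the threshold of the fit over all genes is given once, as a description beside the share of all genes.

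The tumors grew from B16-F10 mouse melanoma cells that carried retroviral vectors for herpes simplex virus glycoprotein B (gB) and firefly luciferase (luc) in every group, and for GFP alone (B16.GFP.gB.luc), IFNα4 with GFP (B16.IFNα4.gB.luc) or IFNα9 with GFP (B16.IFNα9.gB.luc). IFNα4 and IFNα9 are subtypes of type I interferon (IFN-I). Cells were placed under the skin of female C57BL/6 mice of about 8 to 12 weeks by the study's methods, and RNA was taken from the whole tumor on day 8, from 10 tumors of each type. Each line was a sorted population of transduced cells, the vector rather than a cell-type promoter drove the interferon, and the host kept its own immune system. A whole tumor holds melanoma cells, leukocytes, stroma, vessels and any skin or muscle taken with it. Fewer cells of a type and less RNA per cell cannot be told apart in such samples. The counts summed to between 14598517 and 19788383 reads per tumor. Ifna4 had 81 to 188 reads in the IFNα4 tumors and Ifna9 had 55 to 148 in the IFNα9 tumors, and each was at 0 in the other types, where a count of 0 allows up to 3 reads. GFP tumor 7 stood apart, with the lowest TMM scaling factor (0.768), the lowest summed fibroblast markers of its type (3159 CPM against a median of 9338) and the highest melanocyte markers (24756 against 9501). IFNα9 tumor 10 also stood apart from its type, with the highest melanocyte markers (9243 against a median of 4745), the lowest keratinocyte markers (1747 against 5732) and the lowest muscle, endothelial, mural and adipocyte sums. Leaving it out turned the sign of no log2 fold change of the 6 genes. CPM are reads scaled to a common library total, with TMM, edgeR's correction for library composition, throughout.

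Genomic imprinting marks a gene with DNA methylation according to the parent it came from, and the mark is laid down in the germ line and kept through development. Many genes under this control set fetal and placental growth, in pairs with opposed actions. Igf2 encodes a growth factor that acts through the receptor Igf1r and is cleared by Igf2r, while H19 is a long noncoding RNA made from the other parental copy of the same domain. Binding of CTCF to the unmethylated region between them keeps shared enhancers on the H19 side. Several of these genes are high in embryonic mesoderm and are largely switched off in adult tissues, with skeletal muscle as a place where H19 RNA persists.

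On the GRCm38 annotation (GENCODE M21), H19 is a lincRNA on the minus strand at chr7:142575529-142578143, and Igf2 lies on the same strand at chr7:142650766-142666816, with 72.6 kb between them. Peg3 is at chr7:6703892-6730431 on the minus strand and Ndn at chr7:62346569-62350262 on the plus strand. Mest is at chr6:30723547-30748465 on the plus strand and Grb10 at chr11:11930508-12038683 on the minus strand. H19 carries miR-675 within an exon, Igf2 carries miR-483 within an intron and Mest carries miR-335 within an intron, all on the strand of the host. The 6 mature sequences (RefSeq, GRCm38.p6) are shown because transcription of the host gene also makes these precursors. The count table has no row for these small RNAs, so nothing is said about their levels. Bases 2 to 8, the seed that pairs with targets, are in capitals.
mmu-miR-675-5p: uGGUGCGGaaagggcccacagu
mmu-miR-675-3p: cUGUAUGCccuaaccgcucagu
mmu-miR-483-5p: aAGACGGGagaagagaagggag
mmu-miR-483-3p: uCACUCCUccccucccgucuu
mmu-miR-335-5p: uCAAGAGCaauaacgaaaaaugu
mmu-miR-335-3p: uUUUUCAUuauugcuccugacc
The 6 seeds all differ, and the miR-675 pair lies at chr7:142577078-142577099 (3p) and chr7:142577112-142577133 (5p).

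Of the 6 genes, H19 had the highest level per length in every tumor type. On the RPKM scale, TMM-normalized CPM divided by the exon length in kilobases, H19 averaged 113 ± 46.7 in GFP tumors (SD, n = 10), 122 ± 33.1 in IFNα4 tumors and 67.8 ± 35.3 in IFNα9 tumors. Igf2, its neighbor, was the lowest of the set in each type, with RPKM means of 1.49 ± 0.509, 1.31 ± 0.252 and 0.995 ± 0.196. The ratio of the H19 mean to the Igf2 mean was 76.1 in GFP tumors, 93.2 in IFNα4 tumors and 68.1 in IFNα9 tumors. The genes between them did not keep a fixed order. Mest came after H19 in GFP tumors (RPKM 16.3 ± 2.75, against 7.36 ± 1.98 for Grb10). In IFNα4 tumors Grb10 had the higher mean (9.59 ± 1.17 against 6.71 ± 2.91 for Mest), and the means of these neighbors in the order differed by less than the SD of Mest. In IFNα9 tumors Mest (8.17 ± 2.03) and Grb10 (7.60 ± 1.23) were within each other's SD. Peg3 and Ndn followed, at RPKM 2.92 ± 1.10 and 2.83 ± 1.19 in GFP tumors, where they did not differ beyond their spread.

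**Figure D1:**
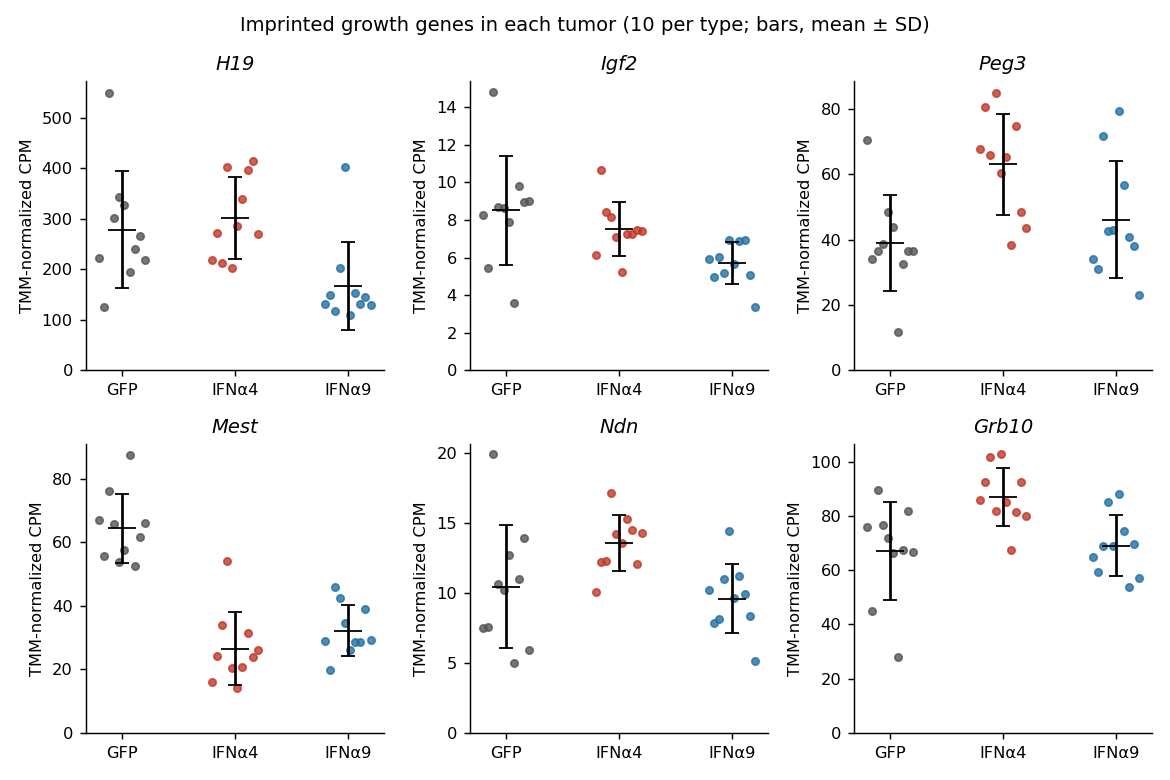
TMM-normalized CPM (linear axis from 0) of the 6 genes in each of 10 tumors of the GFP, IFNα4 and IFNα9 types, with the mean and SD as bars. Mest is the gene whose GFP tumors (52.6 to 87.3 CPM) lie above all 10 IFNα9 tumors, and H19 has 1 IFNα9 tumor, at 403 CPM, far above the other 9.

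H19, the noncoding growth-restraining partner of Igf2, was lower in IFNα9 tumors than in both other types, and similar in GFP and IFNα4 tumors. In GFP tumors H19 ran from 125 CPM through a median of 253 to 549, and in IFNα4 tumors from 203 through 278 to 414. In IFNα9 tumors it ran from 109 through a median of 138 to 403. The highest IFNα9 value came from tumor 5, and the next was 201 CPM. Thus 9 of 10 IFNα9 tumors were below every IFNα4 tumor, while the ranges of IFNα9 and GFP tumors overlapped and 2 IFNα9 tumors were below all GFP tumors. The log2 fold change of H19 was 0.11 (SE 0.22) for IFNα4 minus GFP, -0.74 (SE 0.23) for IFNα9 minus GFP and -0.85 (SE 0.23) for IFNα9 minus IFNα4. The mean of IFNα9 tumors was 167 ± 86.8 CPM (SD), or 141 ± 27.1 without tumor 5, and without it the log2 fold changes became -0.97 against GFP and -1.07 against IFNα4. Without GFP tumor 3, the highest GFP tumor at 549 CPM, the IFNα4 minus GFP value was 0.28 and the IFNα9 minus GFP value was -0.58. Without GFP tumor 2, the lowest GFP tumor at 125 CPM, the IFNα4 minus GFP value was 0.014.

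Igf2, the growth factor of the same domain, was low throughout, at 40 to 237 reads per tumor. Its CPM ran from 3.57 through a median of 8.67 to 14.8 in GFP tumors, from 5.21 through 7.35 to 10.7 in IFNα4 tumors and from 3.38 through 5.80 to 6.95 in IFNα9 tumors. Every IFNα9 tumor was below the GFP median, although only 1 was below all GFP tumors, and the lowest GFP value belonged to tumor 7. For Igf2 the log2 fold change was -0.18 (SE 0.17) for IFNα4 minus GFP, -0.58 (SE 0.17) for IFNα9 minus GFP and -0.40 (SE 0.17) for IFNα9 minus IFNα4. Leaving out GFP tumor 7 gave -0.25 for IFNα4 minus GFP and -0.66 for IFNα9 minus GFP, and leaving out GFP tumor 3, the highest, gave -0.059 and -0.46. Without IFNα9 tumor 10, the lowest of its type, IFNα9 minus GFP was -0.52 and IFNα9 minus IFNα4 was -0.33. Igf2 shares 98 exon bases with the antisense gene Igf2os and 62.8% of its exon bases with an overlapping same-strand gene model that has no row, and the strand setting of the counting is not given in the sources used here.

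Mest, a paternally expressed gene for a hydrolase-fold protein that is high in embryonic mesoderm and growing fat, showed the largest difference of the set. It ran from 52.6 through a median of 63.8 to 87.3 CPM in GFP tumors, from 14.1 through 24.1 to 54.1 in IFNα4 tumors and from 19.7 through 28.9 to 45.8 in IFNα9 tumors. All 10 IFNα9 tumors were below all GFP tumors, and 9 of 10 IFNα4 tumors were, the exception being IFNα4 tumor 4. The share of all tested genes whose GFP and IFNα9 tumors did not overlap was 7.79%. For Mest the log2 fold change was -1.28 (SE 0.18) for IFNα4 minus GFP and -0.997 (SE 0.18) for IFNα9 minus GFP, which is 0.412 and 0.501 times the GFP level on the linear scale. IFNα9 minus IFNα4 was 0.28 (SE 0.18). Without IFNα4 tumor 4 the Mest values were -1.46 for IFNα4 minus GFP and 0.46 for IFNα9 minus IFNα4. Mest shares 912 bases, 23.1% of its exon bases, with Copg2 on the opposite strand, so if the counting did not use strand, reads there cannot be assigned to either gene. Copg2, a coat protein gene of vesicle transport, also fell in both comparisons with GFP tumors (log2 fold change -0.52, adjusted p = 8.77e-06, and -0.33, adjusted p = 0.00222), and its mean went from 134 ± 23.9 CPM in GFP to 93.2 ± 10.6 in IFNα4 and 106 ± 13.2 in IFNα9 tumors. Cell cycle markers fell with Mest in both comparisons with GFP tumors. All 8 listed markers fell in IFNα4 against GFP tumors and 7 of 8 in IFNα9 (100% and 87.5%, against 65.4% and 55.7% of all genes called). In IFNα9 against IFNα4 tumors, where the Mest value was 0.28, 7 of 8 rose (87.5%, against 17.8%), with a median log2 fold change of 0.85. Their summed levels were 1400 to 3338 CPM in GFP, 624 to 807 in IFNα4 and 855 to 1701 in IFNα9 tumors, none of them at 0. Melanocyte markers, of which 4 of 8 had a row, all fell in both comparisons with GFP tumors (100%, against the same shares of all genes). In IFNα9 against IFNα4 tumors 3 of the 4 rose (75%, against 17.8%), with a median log2 fold change of 0.56. The melanocyte sums were 7597 to 24756 CPM in GFP, 2277 to 3777 in IFNα4 and 3500 to 9243 in IFNα9 tumors. The part of either in the Mest difference was not tested.

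Peg3, a paternally expressed zinc finger gene with roles in cell death and maternal behavior, was higher in IFNα4 tumors. It ran from 11.6 through a median of 36.6 to 70.4 CPM in GFP tumors, from 38.4 through 65.7 to 84.9 in IFNα4 tumors and from 22.9 through 41.8 to 79.4 in IFNα9 tumors. All 10 IFNα4 tumors were above the GFP median, and 3 were above every GFP tumor. For Peg3 the log2 fold change was 0.69 (SE 0.22) for IFNα4 minus GFP, 0.24 (SE 0.22) for IFNα9 minus GFP and -0.45 (SE 0.22) for IFNα9 minus IFNα4. GFP tumor 7 was the lowest of all 30 tumors, and without it the IFNα4 minus GFP value was 0.61 and the IFNα9 minus GFP value 0.14. Leaving out each tumor in turn, the IFNα9 minus GFP value ran from 0.13 without IFNα9 tumor 6 to 0.39 without GFP tumor 1. Without IFNα9 tumor 10 the values were 0.32 for IFNα9 minus GFP and -0.37 for IFNα9 minus IFNα4. Of 5 keratinocyte markers tested, 3 rose in IFNα4 against GFP tumors, and 1 rose and 1 fell in IFNα9 against GFP tumors, 60% and 40% of the 5 against 65.4% and 55.7% of all genes. Their sums ran from 838 through a median of 4199 to 6502 CPM in GFP, from 5832 through 6867 to 9109 in IFNα4 and from 1747 through 5732 to 7574 in IFNα9 tumors, and none was at 0. The lowest sums of GFP and IFNα9 tumors were in tumors 7 and 10, which were also lowest for Peg3, whereas in IFNα4 tumors the lowest sum was in tumor 3 and the lowest Peg3 in tumor 7. All 6 leukocyte markers tested rose in both IFN-I–secreting types against GFP (100% in each, against 65.4% and 55.7% of all genes called). The leukocyte sums ran from 35.4 through 138 to 184 CPM in GFP, from 375 through 643 to 950 in IFNα4 and from 234 through 474 to 628 in IFNα9 tumors, and none was at 0. The part of either cell type in the Peg3 difference was not tested.

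Ndn encodes necdin, a MAGE-family protein linked to growth arrest in neurons and to muscle and fat progenitors, and it was at 56 to 318 reads per tumor. Its CPM ran from 4.99 through a median of 10.4 to 19.9 in GFP tumors, from 10.0 through 13.9 to 17.1 in IFNα4 tumors and from 5.16 through 9.80 to 14.4 in IFNα9 tumors. The GFP range covered all values of both other types, while 6 of 10 IFNα9 tumors were below all IFNα4 tumors. The log2 fold change was 0.37 (SE 0.18) for IFNα4 minus GFP, -0.12 (SE 0.19) for IFNα9 minus GFP and -0.50 (SE 0.18) for IFNα9 minus IFNα4. Without GFP tumor 3, the highest, the value was 0.53 for IFNα4 minus GFP and turned to 0.029 for IFNα9 minus GFP. Without IFNα9 tumor 10, the lowest of its type, IFNα9 minus GFP was -0.051 and IFNα9 minus IFNα4 was -0.42.

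Grb10, which encodes an adaptor that damps signaling from the insulin and IGF receptors, ran from 28.0 through a median of 69.5 to 89.7 CPM in GFP tumors. It ran from 67.4 through 85.5 to 103 CPM in IFNα4 tumors and from 54.0 through 69.0 to 88.0 in IFNα9 tumors. IFNα4 tumors were tightly grouped, with a coefficient of variation of 12.3% against 27.0% in GFP tumors, or 17.5% in GFP tumors without tumor 7. For Grb10 the log2 fold change was 0.38 (SE 0.13) for IFNα4 minus GFP, 0.04 (SE 0.13) for IFNα9 minus GFP and -0.34 (SE 0.13) for IFNα9 minus IFNα4. Without GFP tumor 7, the lowest, these were 0.31, -0.04 and -0.35, so that the sign of the small IFNα9 minus GFP value rested on that tumor.

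**Figure D2:**
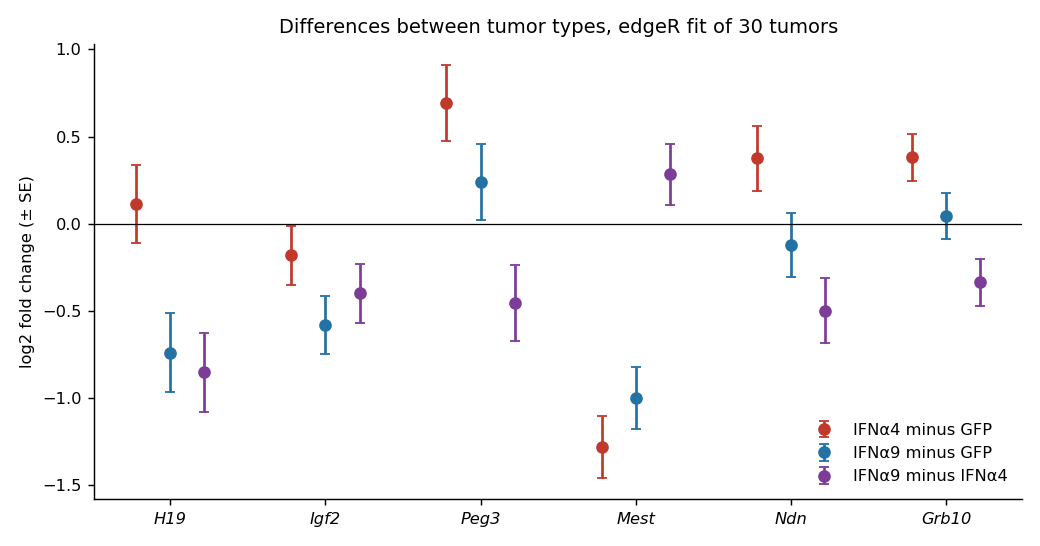
Log2 fold changes (points) with standard errors (bars) of the 6 genes in 3 comparisons, from the edgeR fit of all 30 tumors. Mest is at -1.28 and -0.997 against GFP tumors, and 5 of the 6 genes (all but Mest) are below 0 for IFNα9 minus IFNα4.

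At an adjusted p under 0.05 the fit placed 3 of the 6 genes past the threshold in IFNα4 against GFP tumors (Peg3 and Grb10 higher, Mest lower), where 65.4% of all genes tested were, 31.3% higher and 34.1% lower. It placed 3 past it in IFNα9 against GFP tumors (H19, Igf2 and Mest lower), with 55.7% of all genes, of which 26.9% were higher and 28.9% lower. It placed H19 alone, lower, in IFNα9 against IFNα4 tumors, with 17.8% of all genes, 10.5% higher and 7.25% lower. Since the set was chosen on these samples, these counts describe it and are not evidence about it. The fit of only the 20 IFN-I–secreting tumors placed 4 of the 6 past the threshold for IFNα9 minus IFNα4. The median log2 fold change of the 6 was 0.24, -0.35 and -0.43 in the 3 comparisons in that order, against 0.01, -0.003 and -0.006 over all genes. The comparisons with GFP tumors share the same 10 controls, so they are not independent of each other.

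The genes whose levels went most closely with each of the 6 among tumors of the same type were then listed, by the mean of the 3 within-type Spearman rhos over 10 tumors each. For H19 the 5 closest of 15925 genes were Tmem38a (mean rho 0.89), Myom2 (0.85), Cacna1s (0.84), Jph2 (0.83) and Mylpf (0.83). All 5 encode parts of the striated muscle cell: a sarcoplasmic reticulum channel, an M-band protein, the calcium channel subunit of the T-tubule, a junctophilin and a fast-fiber myosin light chain. For Ndn they were Dusp23 (0.87), Fitm1 (0.86), Sgca (0.85), Lbx1 (0.84) and Cav3 (0.83), of which Sgca and Cav3 encode muscle membrane proteins and Lbx1 a transcription factor of migrating muscle precursors. For Grb10 they were Fap (0.85), Jam2 (0.83), Aspn (0.83), Reps2 (0.82) and Bicc1 (0.81), and Fap and Aspn are expressed by fibroblasts. Peg3 was closest to Acsl1 (0.83), A530020G20Rik (0.82), Ankef1 (0.79), Fzd4 (0.79) and B3galt2 (0.79). Mest was closest to Sypl (0.82), Ccdc43 (0.79), Slc5a3 (0.78), Dcun1d5 (0.77) and Vbp1 (0.77), and Igf2, with the fewest reads, to Gnaz (0.72), Hoxd9 (0.68), Gucy1a1 (0.67), Hey1 (0.66) and Eid2 (0.65). These rhos are descriptions, picked as the highest of many.

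By the same measure, none of the 6 genes was among the 5 closest to another. Ndn was rank 362 among the genes closest to H19 (mean rho 0.56), whereas Igf2 was rank 2372 (0.26), Peg3 rank 3545 (0.19), Grb10 rank 5409 (0.10) and Mest rank 5568 (0.09). Among the other pairs the highest mean rhos were 0.45 for Peg3 and Grb10 (rank 632 from the side of Peg3 and 599 from that of Grb10) and 0.42 for Igf2 and Ndn (ranks 402 and 1593). In the permutation tests of H19 with the other 5 genes within each type, 0 of 15 relations passed after Benjamini-Hochberg adjustment, and 3 had an unadjusted p under 0.05 by r or rho. With Ndn in GFP tumors, Pearson r was 0.77 (permutation p = 0.01004, adjusted 0.1506) and rho was 0.75 (p = 0.0168, adjusted 0.252), and r was 0.77 without the 2 tumors farthest from the H19 median. With Igf2 in GFP tumors, r was 0.73 (permutation p = 0.0214, adjusted 0.1605) and rho was 0.48 (p = 0.1671, adjusted 0.5013), and r dropped to 0.48 without tumors 2 and 3. H19 and Igf2 had r of 0.07 in IFNα4 and 0.29 in IFNα9 tumors.

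Mature skeletal muscle markers moved with H19. Of 8 listed (Acta1, Ckm, Myh1, Myh4, Tnnt3, Mylpf, Tnnc2 and Atp2a1), 0 passed the edgeR test in IFNα4 against GFP tumors (0 also at an unadjusted p under 0.05 and 0 by DESeq2), 5 fell in IFNα9 against GFP tumors (62.5% of the 8, against 55.7% of all genes called) and 7 fell in IFNα9 against IFNα4 tumors (87.5%, against 17.8%). Acta1, skeletal actin, averaged 2012 CPM in GFP, 1962 in IFNα4 and 879 in IFNα9 tumors (IFNα9 minus GFP log2 fold change -1.19, SE 0.33; IFNα9 minus IFNα4 -1.16, SE 0.33). The summed level of the 8 ran from 3965 through a median of 6912 to 19461 CPM in GFP tumors, from 4617 through 9415 to 16661 in IFNα4 tumors and from 1820 through 4168 to 14256 in IFNα9 tumors, and none was at 0. The highest sum of each type belonged to GFP tumor 3, IFNα4 tumor 4 and IFNα9 tumor 5, which were also the highest of their types for Ndn. GFP tumor 3 and IFNα9 tumor 5 were the highest for H19 too, but the highest H19 among IFNα4 tumors was in tumor 9. The markers of muscle progenitors and regenerating muscle were low, with sums of 4.61 to 56.1 CPM over all tumors, and 0 of 3 tested passed the edgeR test in any comparison. For IFNα9 minus IFNα4, 2 of the 3 had an unadjusted p under 0.05 and 1 passed by DESeq2. Endothelial markers, all 6 of which were tested and none at 0, also fell in IFNα9 tumors, 4 of 6 against GFP and 3 of 6 against IFNα4 tumors. These were 66.7% and 50%, against 55.7% and 17.8% of all genes. The endothelial sums ran from 171 through a median of 334 to 439 CPM in GFP, from 240 through 309 to 343 in IFNα4 and from 123 through 170 to 221 in IFNα9 tumors. In IFNα4 against GFP tumors, where the log2 fold change of H19 was 0.11, 4 of them fell and 1 rose (83.3%, against 65.4%). The part of muscle or endothelium in the H19 difference was not tested.

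Within types, H19 and Ndn went with a skeletal muscle score, the mean log2 CPM of the 8 markers. This relation was looked at after the lists above were seen, so it is not independent of them. Mylpf is both a marker of this score and among the 5 genes closest to H19, so these results overlap. The p-values below describe the relation and are not separate evidence for it. For H19, r was 0.91 in GFP tumors (permutation p = 0.0001, adjusted 0.0018; rho 0.93, adjusted 0.00666), 0.75 in IFNα4 tumors (p = 0.00879, adjusted 0.02637; rho 0.70, adjusted 0.09) and 0.89 in IFNα9 tumors (p = 0.00237, adjusted 0.01782; rho 0.83, adjusted 0.04266). Without the 2 tumors farthest from the median score, r was 0.83, 0.67 and 0.85. In IFNα9 tumors r was 0.61 without tumor 5 alone (adjusted p = 0.157), and in IFNα4 tumors the adjusted p was over 0.05 without any 1 of tumors 1, 3, 4 or 8 (0.0641 to 0.0822). For Ndn, r was 0.82, 0.84 and 0.86 in the 3 types (permutation, adjusted p = 0.01782, 0.01782 and 0.02218), with rho of 0.79, 0.75 and 0.76 (adjusted 0.05184, 0.06095 and 0.06095). Without the 2 farthest tumors r of Ndn was 0.64, 0.49 and 0.44, so the Ndn relations rested in part on those tumors. The adjusted p of Ndn was over 0.05 without GFP tumor 3 (r 0.71, permutation, adjusted p = 0.11), without IFNα4 tumor 1 (r 0.71, 0.0804) or 4 (r 0.77, 0.0646), and without IFNα9 tumor 5 (r 0.82, 0.0517). None of the 12 relations of Igf2, Peg3, Mest and Grb10 with the score passed, out of 18 relations in all, but Igf2 in GFP tumors (r 0.68, permutation, adjusted p = 0.0732) passed with library totals in place of TMM (r 0.70, 0.0316) and without GFP tumor 10 (r 0.77, 0.0332).

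**Figure D3:**
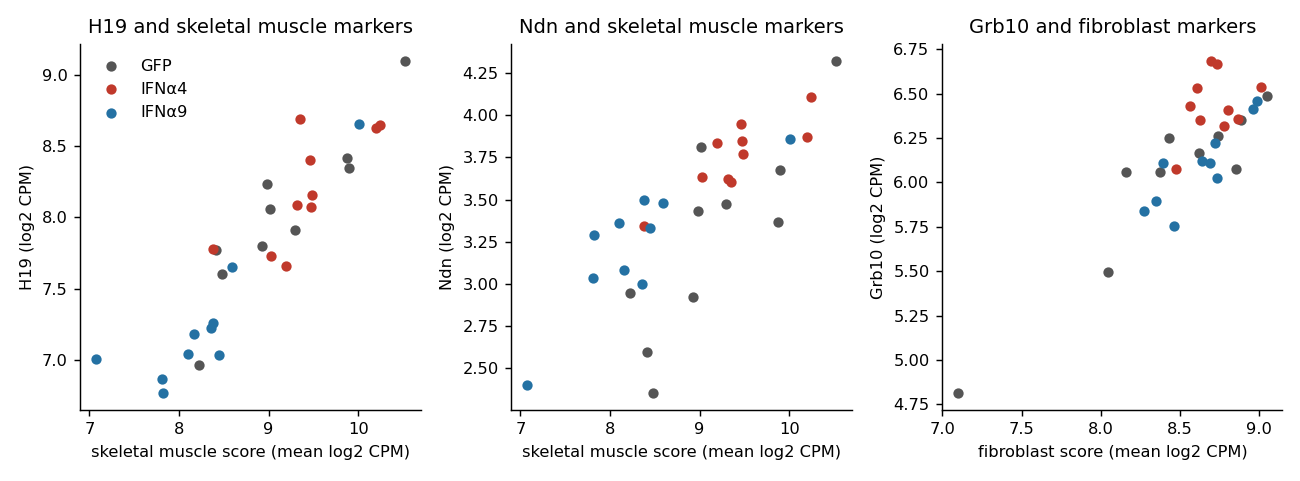
H19 and Ndn against the skeletal muscle score, and Grb10 against the fibroblast score, with 1 point per tumor and 10 tumors of each type (all axes log2 CPM). H19 rises with the muscle score within each type (r 0.91, 0.75 and 0.89), and GFP tumor 7 is the point at the lower left of the Grb10 panel.

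Grb10 went instead with the fibroblast score, the mean log2 CPM of 8 collagen, receptor and surface markers (Col1a1 and Pdgfra among them). Of 18 relations of the 6 genes with this score, 4 passed, and Peg3 in IFNα9 tumors (r 0.68) passed only without tumor 4 (r 0.79, permutation, adjusted p = 0.0451). For Grb10, r was 0.94 in GFP tumors (permutation p = 0.00021, adjusted 0.00189; rho 0.90, adjusted 0.01494) and 0.86 in IFNα9 tumors (p = 0.00164, adjusted 0.00738; rho 0.78, adjusted 0.04648), and 0.36 in IFNα4 tumors (adjusted p = 0.5023). Without the 2 farthest tumors, GFP tumor 7 among them, r was 0.73 and 0.77 in GFP and IFNα9 tumors. In GFP tumors Igf2 (r 0.91, permutation p = 0.00021, adjusted 0.00189) and Ndn (r 0.85, p = 0.00127, adjusted 0.00738) also passed, with r of 0.70 and 0.74 without the 2 farthest tumors. Whether the relations differ between types was not tested. Fap is both a fibroblast marker of this score and the gene closest to Grb10, so these results overlap. Of the 8 fibroblast markers, 4 rose and 1 fell in IFNα4 against GFP tumors, and 2 rose and 1 fell in IFNα9 against GFP tumors, which is 62.5% and 37.5% of them, against 65.4% and 55.7% of all genes.

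The other imprinted genes of the genome moved in both directions. Of 64 listed, 57 had a row and 46 were tested. In IFNα4 against GFP tumors 17 rose and 13 fell (65.2%, against 65.4% of all genes), in IFNα9 against GFP tumors 11 rose and 10 fell (45.7% against 55.7%), and in IFNα9 against IFNα4 tumors 4 rose and 6 fell (21.7% against 17.8%). The medians of the log2 fold change over the 46 were 0.09, -0.06 and -0.08. Split by parent, 8 of 26 maternally expressed genes rose and 7 fell in IFNα4 against GFP tumors, and of 18 paternally expressed genes 9 rose and 4 fell. These calls were 57.7% and 72.2%, against 65.4% of all genes. In IFNα9 against GFP tumors the maternally expressed genes gave 4 up and 8 down and the paternally expressed genes 7 up and 2 down (46.2% and 50%, against 55.7%). In IFNα9 against IFNα4 tumors they gave 0 up and 3 down, and 3 up and 3 down (11.5% and 33.3%, against 17.8%). The difference between these splits was not tested.

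**Figure D4:**
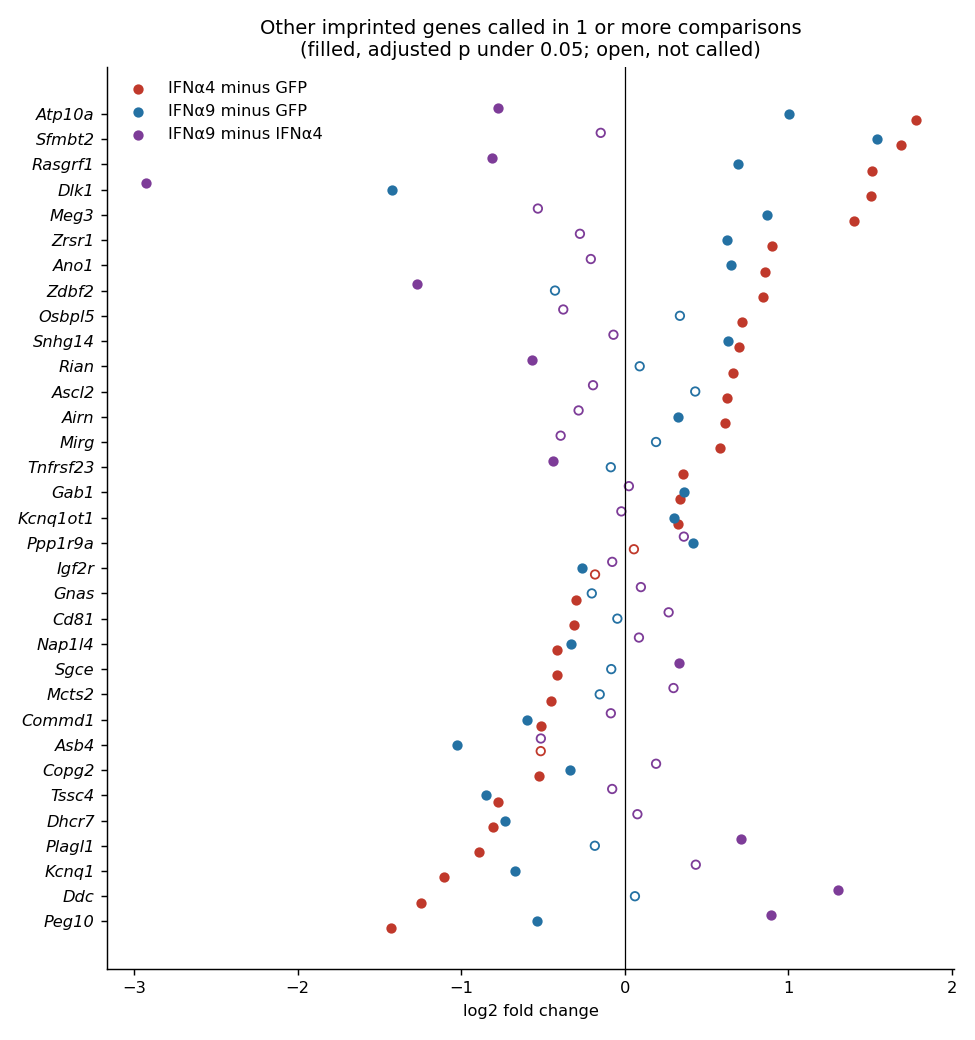
Log2 fold changes of the 33 other imprinted genes, of 46 tested, that passed the edgeR test in 1 or more of 3 comparisons. Filled points passed (adjusted p under 0.05) and open points did not, and Dlk1 is the gene with a value of 1.51 for IFNα4 minus GFP and -1.42 for IFNα9 minus GFP.

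Dlk1, a paternally expressed Notch-like ligand of progenitor cells, separated the interferon types most widely among the listed genes. It averaged 4.55 ± 1.76 CPM in GFP tumors (SD, n = 10), 12.97 ± 7.09 in IFNα4 tumors and 1.703 ± 1.21 in IFNα9 tumors. The log2 fold change was 1.51 for IFNα4 minus GFP (SE 0.32, adjusted p = 0.000176), -1.42 for IFNα9 minus GFP (SE 0.34, adjusted p = 0.000752) and -2.93 for IFNα9 minus IFNα4 (SE 0.35, adjusted p = 7.11e-07). The IFNα9 range of 0.538 to 4.79 CPM overlapped that of IFNα4 tumors, 3.08 to 29.7. Meg3, the maternally expressed noncoding RNA of the Dlk1 domain, rose in both IFN-I–secreting types instead, from 50.6 ± 21.3 CPM to 134 ± 27.9 (log2 fold change 1.40, adjusted p = 1.54e-06) and to 92.5 ± 17.1 (0.87, adjusted p = 0.000905). Its IFNα9 minus IFNα4 value was -0.53 (adjusted p = 0.0752), a difference that passed in the fit of only the 20 tumors (adjusted p = 0.00371), by DESeq2 (0.0478) and without GFP tumor 7 (0.00931) or IFNα4 tumor 4 (0.0447).

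Among the rest, Atp10a, a lipid flippase gene, rose from 18.6 ± 5.08 CPM in GFP tumors to 63.9 ± 8.31 in IFNα4 tumors (log2 fold change 1.78, adjusted p = 8.2e-12) and to 37.3 ± 5.52 in IFNα9 tumors (1.00, adjusted p = 9.48e-07), and the 3 types did not overlap. Sfmbt2, a Polycomb-group gene, rose by log2 values of 1.69 and 1.54 from a low level of 0.401 CPM. Peg10, a retrotransposon-derived gene needed in the placenta, fell in IFNα4 tumors (log2 fold change -1.43, adjusted p = 2.48e-08) and was higher in IFNα9 than in IFNα4 tumors (0.89, adjusted p = 0.000371). Plagl1, a zinc finger factor that acts on other imprinted genes, including those of the H19 domain, had 647 ± 230 CPM in GFP tumors, 348 ± 71.0 in IFNα4 tumors and 569 ± 207 in IFNα9 tumors. It fell in IFNα4 against GFP tumors (log2 fold change -0.89, adjusted p = 6.2e-05) and was higher in IFNα9 than in IFNα4 tumors (0.71, adjusted p = 0.00479). In IFNα9 against GFP tumors Asb4, a ubiquitin ligase adaptor gene (-1.03, adjusted p = 0.0019), and Tssc4 (-0.85, adjusted p = 0.000172) fell. In IFNα9 against IFNα4 tumors Zdbf2 (-1.27, adjusted p = 0.0186) and Rasgrf1, a Ras exchange factor gene (-0.81, adjusted p = 0.0189), were lower.

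Imprinted genes within 2 Mb of H19 moved in both directions. Of 13 listed neighbors, 11 were tested: 4 rose and 5 fell in IFNα4 against GFP tumors, 1 rose and 4 fell in IFNα9 against GFP tumors, and 1, Tnfrsf23, fell in IFNα9 against IFNα4 tumors, the comparison with the widest H19 difference. These calls were 81.8%, 45.5% and 9.09% of the 11, against 65.4%, 55.7% and 17.8% of all genes. Igf2 shares these neighbors and has 1 more that was tested, Ano1, a chloride channel gene, which rose in both comparisons with GFP tumors. Tssc4, Kcnq1, Nap1l4 and Dhcr7 were the 4 that fell in IFNα9 against GFP tumors, and the same 4 were among the 5 that fell in IFNα4 tumors, where H19 was close to the GFP level. Cdkn1c, a maternally expressed inhibitor of the cell cycle in this domain, did not pass in any comparison (log2 fold changes 0.05, -0.27 and -0.32, adjusted p = 0.837, 0.244 and 0.283), and the sign of the smallest value turned without IFNα4 tumor 2 or 8. Ins2, next to Igf2, reached at most 1 read in a tumor.

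Copg2, described with Mest, was the only tested neighbor of that gene among the 2 listed, and it fell with Mest in both comparisons with GFP tumors. Next to Ndn, Magel2 had at most 1 read in any tumor, Mkrn3 at most 17 and Peg12 at most 27, and none of the 3 was tested. Next to Peg3, Usp29 had at most 18 reads and Zfp264 had 0 reads in all 30 tumors, which allows up to 3 reads in each. Zim1, the maternally expressed neighbor of Peg3, averaged 6.58, 7.15 and 6.17 CPM in GFP, IFNα4 and IFNα9 tumors, with adjusted p of 0.737, 0.795 and 0.674. Ddc, which lies 32.4 kb from Grb10 and encodes an amino acid decarboxylase, fell in IFNα4 against GFP tumors (log2 fold change -1.24, adjusted p = 1.85e-05), where the Grb10 log2 fold change was 0.38, and it was higher in IFNα9 than in IFNα4 tumors (1.30, adjusted p = 0.000105).

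Igf2 and Grb10 belong to the insulin-like growth factor (IGF) pathway, of which 18 of 22 other listed genes were tested. In IFNα4 against GFP tumors 8 rose and 3 fell, in IFNα9 against GFP tumors 7 rose and 3 fell, and in IFNα9 against IFNα4 tumors 2 rose and 2 fell, with median log2 fold changes of 0.30, 0.22 and -0.10. These calls were 61.1%, 55.6% and 22.2% of the 18, against 65.4%, 55.7% and 17.8% of all genes. Igf1, the other ligand, had 68.8, 82.2 and 80.5 CPM in GFP, IFNα4 and IFNα9 tumors, with adjusted p of 0.197, 0.272 and 0.93. Igf1r, the signaling receptor, rose in IFNα9 against GFP tumors (log2 fold change 0.24, adjusted p = 0.0237), and Igf2r, the clearance receptor, fell there (-0.26, adjusted p = 0.00926), although not when libraries were scaled by their totals (-0.17, adjusted p = 0.14). In IFNα4 against GFP tumors Igf2r did not pass in the main fit, and leaving out 1 tumor gave -0.22 to -0.15. Several of those edgeR fits passed, such as without GFP tumor 3 (adjusted p = 0.027) or 7 (0.0329), so the fall was not particular to IFNα9 tumors.

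Of 6 IGF binding proteins tested, 2 rose and 1 fell in IFNα4 against GFP tumors, and 1 rose and 2 fell in IFNα9 against GFP tumors, 50.0% in each against 65.4% and 55.7% of all genes. Igfbp5 rose from 366 ± 205 CPM in GFP tumors to 786 ± 177 in IFNα4 tumors (log2 fold change 1.10, adjusted p = 0.000422) and 737 ± 175 in IFNα9 tumors (1.01, adjusted p = 0.00134). Igfbp4, another binding protein, fell in both, from 182 ± 34.1 CPM to 109 ± 17.0 (-0.75, adjusted p = 1.64e-06) and 121 ± 23.5 (-0.59, adjusted p = 6.98e-05). Igfbp7 fell in IFNα9 tumors (-0.45, adjusted p = 0.0028). Pappa, a protease that cuts binding proteins, rose in IFNα4 (0.93, adjusted p = 0.00231) and IFNα9 tumors (1.18, adjusted p = 0.000296) against GFP tumors. Pappa2, its relative, also rose in both (1.58, adjusted p = 9.83e-07, and 0.97, adjusted p = 0.000756). Igfbp3 did not pass in any comparison (0.02, -0.25 and -0.27).

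The 3 RNA-binding proteins named for binding Igf2 mRNA each took a different course. Igf2bp1 fell in IFNα4 against GFP tumors (10.8 ± 1.99 to 4.42 ± 1.33 CPM, log2 fold change -1.29, adjusted p = 3.22e-06) and was higher in IFNα9 than in IFNα4 tumors (0.93, adjusted p = 0.00175). Igf2bp2 rose in both, from 11.3 ± 2.68 CPM to 33.5 ± 8.80 (1.57, adjusted p = 4.34e-10) and 21.8 ± 4.38 (0.95, adjusted p = 6.56e-06). Igf2bp3 fell in IFNα4 tumors (-0.64, adjusted p = 0.00326) and rose in IFNα9 tumors (0.59, adjusted p = 0.0068), a difference of 1.22 between them (adjusted p = 1.96e-05).

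Proteins that set, copy or read imprints were tested as a list of 16. In IFNα4 against GFP tumors 5 rose and 8 fell, in IFNα9 against GFP tumors 3 rose and 4 fell, and in IFNα9 against IFNα4 tumors 6 rose and 1 fell. These calls were 81.2%, 43.8% and 43.8% of the 16, against 65.4%, 55.7% and 17.8% of all genes. Ctcf, the insulator protein of the H19 domain, did not pass in any comparison, with 86.8, 96.3 and 95.5 CPM in GFP, IFNα4 and IFNα9 tumors (adjusted p = 0.128, 0.176 and 0.943). Without GFP tumor 10 it passed the edgeR test in IFNα4 against GFP tumors (0.21, adjusted p = 0.0181) and in IFNα9 against GFP tumors (0.20, adjusted p = 0.0291). Dnmt1, which copies DNA methylation at replication, fell in IFNα4 against GFP tumors (166 ± 30.9 to 110 ± 11.3 CPM, log2 fold change -0.59, adjusted p = 1.25e-06) and stood at 157 ± 14.95 in IFNα9 tumors (-0.08, adjusted p = 0.424). Uhrf1, which guides Dnmt1 to new strands, fell by 1.63 and 0.74 on the log2 scale (adjusted p = 1.84e-11 and 3.1e-05), and Hells, a helicase of the same process, fell by 1.27 in IFNα4 tumors (adjusted p = 2.45e-08). Dppa3, which protects imprints in the early embryo, rose in IFNα4 against GFP tumors (1.91, adjusted p = 9.56e-05) at 1.41 against 0.362 CPM. Dnmt1, Uhrf1 and Hells are also replication genes, and the cell cycle markers described with Mest fell in both comparisons with GFP tumors. In IFNα9 against IFNα4 tumors, where 6 of the 16 rose, 7 of the 8 cell cycle markers rose as well. The part of cell division in these changes was not tested.

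Promoter sequences of the RefSeq table (GRCm38.p6, 250 bases before to 50 after each start) were found for 5 of the 6 genes, with 11 promoters, and H19 was not matched. The core of the interferon-stimulated response element (GAAA, 2 bases of any kind, GAAA, on either strand) was in 1 of the 11, an Igf2 promoter at chr7:142658755-142659054 on the minus strand, as TTTCTGTTTC at bases 276 to 285 of the window. Over 32851 promoters of this length 3.44% held the core. A match is a description of letters and not a binding site.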

How the data were processed

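RNA from 30 whole tumors, 10 per type on day 8, had been made into TruSeq stranded mRNA libraries and read as 50-base single ends. The authors' deposited file holds raw counts per gene for each tumor: per the study's methods, reads were checked with FastQC (0.11.3), aligned with HISAT2 (2.0.4) and counted with summarizeOverlaps. The methods name mm11 and the submitters' processing notes mm10 as the build, and the strand setting is not given in the sources used here. Positions are from GENCODE M21 (GRCm38), in which 39495 of 39676 identifiers were found.

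Genes averaging 10 or more counts over the tumors were scaled by TMM and fitted over all 30 tumors with tumor type as the only factor, by edgeR's quasi-likelihood test (edgeR 4.0.16, R 4.3.3), with Benjamini-Hochberg adjustment over 15926 genes and a threshold of 0.05. The study's own analysis used DESeq2, which was run as an alternative (DESeq2 1.42.0). CPM values were TMM-normalized, and log2 CPM used a prior count of 2. Relations within a type used two-sided permutation tests with 100000 resamples, for which 1e-05 is the smallest p. Beyond the 6 genes, named genes were a set of 13 of the pathway, the 4 largest rises and falls among the listed genes that passed in each comparison, and the 5 closest genes of each member; others, named for being next to or overlapping one of the 6 or for their role beside one, were chosen after their values were seen. The fit was tested on simulated counts in which 200 of 15859 genes were changed in IFNα4 tumors only. For IFNα4 minus GFP it recovered 98 of 100 genes changed by a fold of 2 and 36 of 100 changed by a fold of 1.5, and called 5 unchanged genes. For IFNα9 minus IFNα4 it recovered 95 and 40 of 100 and called 10 unchanged genes, and for IFNα9 minus GFP, where nothing was changed, it called 0. In the tumors 65.4% of 15926 genes were called for IFNα4 minus GFP, a far larger share than was changed in the simulation. The numbers recovered and called therefore describe the simulated counts, and how far they hold for the tumor counts was not tested. The members and lists were chosen with earlier results of these data known. The tumors are labelled biological replicates, and p-values measure the spread between them. No pair of libraries was identical. The precision that a count gives covers counting error only.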

Additional observations from a re-analysis of the deposited data

Results flagged for a closer look

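Each of the 6 genes and the fibroblast and skeletal muscle scores was searched in each tumor type for a tumor far from the other 9 (Dixon's ratio of the gap to the whole range, above the 95% critical value for 10 samples). Of 24 groups searched, 5 held such a tumor, where chance gives about 1 in 20. H19 in IFNα9 tumor 5 was at 8.66 log2 CPM, with the next tumor at 7.66, and the skeletal muscle score of the same tumor was 10.01, with the next at 8.59. Peg3 in GFP tumor 7 was at 3.55 log2 CPM, with the next lowest tumor at 5.02, and the fibroblast score of the same tumor was 7.10, with the next at 8.05. Igf2 in IFNα9 tumor 10 was at 1.81 log2 CPM, with the next lowest at 2.34, and the same tumor had the highest melanocyte and the lowest keratinocyte sums of its type.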

How the results depend on the processing

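Scaling by DESeq2 size factors or library totals, DESeq2 itself, other filters, fits of 20 tumors, a replicate block and leaving out each tumor in turn were tried. Of 3544 repeated values, 3476 were taken as unchanged. For other genes and for relations this meant the same direction and side of the threshold. For the 6 genes it meant a move of less than 1 SD between tumors, even where a small value that was not called turned sign. For counts it meant a set ratio, wide enough to take in 4 in place of 3 and 14 in place of 10. No log2 fold change of the 6 genes moved by as much as 1 SD between tumors. For IFNα4 minus GFP, 3 of the 6 genes were past the threshold and 4, with Ndn added, with library totals, by DESeq2, under the replicate block and without GFP tumor 3 or 9. For IFNα9 minus IFNα4, 1 of the 6 genes was past the threshold, but 2 were with DESeq2 size factors, 2 by DESeq2's Wald test and 4 in the fit of the 20 tumors, where the count over all genes was 4332 in place of 2833. Leaving out 1 tumor gave 1 to 4 (4 without GFP tumor 7, which gave 14 other imprinted genes in place of 10 and 6 IGF genes in place of 4). The cause was not tested. Relations of H19 with other members numbered 0 or 1 past the threshold, with 1 (Ndn, r 0.85, permutation, adjusted p = 0.041) without GFP tumor 2. Several small differences that were not called turned sign, also those of Ndn and Grb10 in IFNα9 minus GFP, as given above. With library totals, Dnmt1 in IFNα9 minus GFP was 0.025 and Ctcf in IFNα9 minus IFNα4 was 0.0100, and the latter was 0.014 under edgeR's filterByExpr. Leaving out 1 tumor gave -0.050 to 0.13 for Cdkn1c and -0.050 to 0.094 for Igfbp3 in IFNα4 minus GFP, and -0.10 to 0.056 for Igf1 and -0.030 to 0.035 for Ctcf in IFNα9 minus IFNα4. The r of H19 and Igf2 ran from -0.062 to 0.19 in IFNα4 and from -0.055 to 0.37 in IFNα9 tumors. With library totals 58.3% of the calls for IFNα9 minus GFP were higher, against 48.2% with TMM.

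Tumors that share a number across types were not paired: the correlations of their deviations ran from -0.267 to 0.302, and at most 2 of 10 numbers exceeded 0.1. The replicate block gave 10249, 8626 and 2538 genes past the threshold in the 3 comparisons, against 10412, 8876 and 2833, and 29, 21 and 10 other imprinted genes, against 30, 21 and 10. The depth limits Igf2, Ndn and the near-silent neighbors most, and genes under the filter were not tested.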

Other observations

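Relatives of Grb10 and necdin were listed as well, and 5 of 6 were tested. Maged1, a MAGE-family gene like Ndn, fell in both IFN-I–secreting types, from 347 ± 55.0 CPM in GFP tumors to 191 ± 28.3 in IFNα4 tumors (edgeR log2 fold change -0.86, adjusted p = 1.51e-08) and 264 ± 42.3 in IFNα9 tumors (-0.39, adjusted p = 0.00136), while Ndn had log2 fold changes of 0.37 and -0.12. Maged2 fell in both as well (-0.46, adjusted p = 0.000537, and -0.49, adjusted p = 0.000341). Grb7 and Grb14, the other adaptors of the Grb10 family, rose in IFNα4 against GFP tumors (0.61, adjusted p = 0.0369, and 0.48, adjusted p = 0.0313) and had 0.46 and 0.17 in IFNα9 against GFP tumors (adjusted p = 0.119 and 0.462). Nsmce3, which belongs to the MAGE family too, did not pass in any comparison.

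Markers of fat, a tissue where Mest and Dlk1 are also known, gave 0 of 6 called by edgeR in each comparison, with 2, 1 and 0 at an unadjusted p under 0.05 and 2, 1 and 0 by DESeq2. Their sums ran from 576 to 1579 CPM in GFP, 771 to 1945 in IFNα4 and 537 to 2369 in IFNα9 tumors.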
